A study of Mus musculus with 19 samples.

Results

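The genes Insm1, Stra8, Obox6 and AA465934 were followed across mouse stem cells that lack the miR-290 microRNA cluster, the miR-302 cluster or both. These 4 genes, of 12778 in the authors' deposited expression matrix, were chosen by their values in miR-290 knockout (KO) induced pluripotent stem cells (iPSC) set against wild-type (WT) iPSC: Insm1 was far higher in the knockout, and the other 3 were far lower. Any value from those 2 groups is therefore a description of the choice and carries no test. Tests were run on the other 4 groups, whose libraries the choice did not use.

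Expression had been measured by QuantSeq, which sequences tags from the 3′ end of polyadenylated RNA, in 19 libraries of 6 groups. All cells were grown with LIF and FBS. The iPSC came from mouse embryonic fibroblasts reprogrammed with Oct4, Sox2 and Klf4 and were collected after more than 18 passages; they were WT (3 libraries), miR-290KO, miR-302KO or miR-290KO;miR-302KO (4 libraries each, from 2 colonies). The last genotype is called double KO here, and the series text speaks of iPSC or iPSC-like cells. Embryonic stem cells (ESC) were miR-290KO or miR-302KO, with 2 libraries each, and no WT ESC was analysed here. The colony is the biological replicate in the series text, which makes an exception for the WT iPSC controls, so the 3 WT libraries may share a derivation. No label ties the 2 libraries of an ESC group to separate lines, and p-values then measure only the spread between these samples.

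MicroRNAs lower the level and the translation of messenger RNAs by pairing their seed, bases 2 to 8, with sites that lie mostly in 3′ untranslated regions (3′ UTRs). Mouse pluripotent cells make large amounts of microRNAs from the miR-290 cluster and, later in development, from miR-302, and many of their members carry the same seed. Insm1 is a zinc-finger transcriptional repressor that is needed for endocrine and neuronal differentiation and recruits the LSD1-CoREST complex. Stra8 is induced by retinoic acid in germ cells and is needed for entry into meiosis. Obox6 belongs to a homeobox family known from oocytes and early embryos, and its addition has been reported to raise the yield of reprogramming. AA465934 is annotated as a noncoding transcript.

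The shared seed is shown first because both deleted clusters encode it. The mature microRNAs of the 2 clusters were taken from a list in RefSeq (GRCm38.p6). Of those listed, 5 had the seed AAGUGCU, 3 from the miR-290 cluster on chromosome 7 and 2 from the miR-302 cluster on chromosome 3. For miR-302a and miR-292a the list held only the 5p form, so the set of 5 can be incomplete. The sequences of the 5 are given 5′ to 3′, with the seed in capitals.
mmu-miR-291a-3p: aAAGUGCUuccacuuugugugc
mmu-miR-294-3p: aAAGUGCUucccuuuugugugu
mmu-miR-295-3p: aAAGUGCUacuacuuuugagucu
mmu-miR-302b-3p: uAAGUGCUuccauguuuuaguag
mmu-miR-302d-3p: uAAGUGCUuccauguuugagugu
A perfect match to this seed (AGCACTT on the sense strand) was searched in GENCODE transcripts of the mm10 build, the build named in the submitters' processing notes. None was found in the 3′ UTR of Insm1 (1189 bases), Stra8 (174 bases) or Obox6 (236 bases), nor in any of 5 transcripts of AA465934. Of 11844 genes of the matrix with an annotated 3′ UTR, 2073 (17.5%) held at least 1 match. The absence of these letters from an annotated window says nothing of other kinds of site.

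The 4 genes lie on 4 chromosomes. In mm10, Insm1 is at chr2:146221921-146225020 on the plus strand, Stra8 at chr6:34920163-34939344 on the plus strand, Obox6 at chr7:15833241-15839678 on the minus strand and AA465934 at chr11:83291699-83294632 on the plus strand. The first 3 are protein-coding genes. Obox6 shares chromosome 7 with the miR-290 cluster (chr7:3218638-3220837), at a distance of 12.61 Mb. The Obox family has many near-identical members, and how reads that map to several of them were treated is not given in the sources used here, so the level of Obox6 is uncertain in that respect. Whether counting used the strand is not given either.

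Facts of the whole series bear on what follows. Levels are in CPM (reads per 1000000 library reads) and come from reads recovered out of the deposited log2 values, and the libraries held 6302038 to 24402018 recovered reads. The 2 libraries of miR-302 KO iPSC colony 1 differed by at least 3 on the log2 scale in 1398 genes (10.9% of the matrix), those of colony 2 in 317 genes (2.48%), and the 2 miR-302 KO ESC libraries in 343 genes (2.68%). In the other pairs of libraries, which came from the miR-290 KO and double KO groups, such genes numbered 25 to 99. Whether libraries labelled as the same miR-302 KO iPSC colony came from the same cells was not tested, and n counts the colonies as labelled. The microRNAs themselves were not measured, so the genotypes rest on the labels. Summed over 24 pluripotency genes, the level was 5744 to 8375 CPM in every library outside the double KO and 1441 to 1678 CPM in the double KO; Pou5f1, Sox2, Nanog, Esrrb and Zfp42 all had reads in each group. The double KO cells thus stood apart from the label iPSC by these markers.

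**Figure D1:**
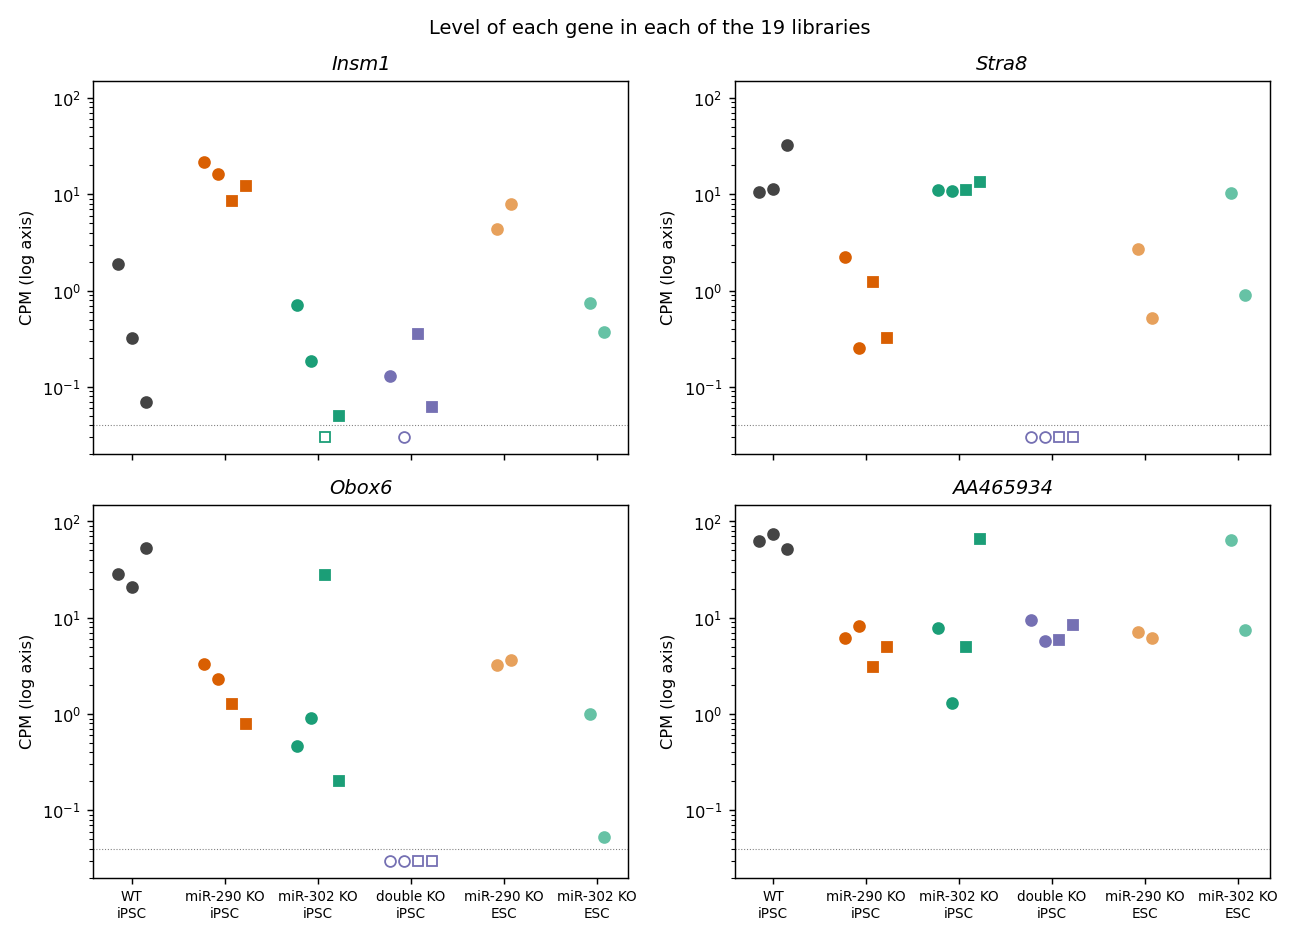
Level of Insm1, Stra8, Obox6 and AA465934 in each of the 19 libraries, in CPM on a log axis. Circles are colony 1 or libraries without a colony, squares are colony 2, and open symbols under the dotted line are libraries with 0 reads. Insm1 is high in both miR-290 KO groups, and Stra8 and Obox6 have 0 reads in all 4 double KO libraries.

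Insm1 had reads in number only in the miR-290 KO iPSC and ESC. Colony 1 of the miR-290 KO iPSC gave 21.5 and 16.4 CPM, and colony 2 gave 8.55 and 12.1 CPM. The 2 miR-290 KO ESC libraries gave 4.40 and 7.91 CPM. In WT iPSC the values were 1.88, 0.324 and 0.0705 CPM, from 34, 6 and 1 reads. Both miR-290 KO groups thus lay above every WT library, and the WT and miR-290 KO iPSC values are those used in the choice. The ESC values were lower than those of the miR-290 KO iPSC. In miR-302 KO iPSC, Insm1 ran from 0 to 0.703 CPM (15 reads over 4 libraries), in double KO iPSC from 0 to 0.353 CPM (9 reads over 4 libraries), and in miR-302 KO ESC it was 0.751 and 0.375 CPM. These 3 groups and WT overlapped, so their order is not resolved.

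As a description of the choice, Insm1 was 4.57 (SE 0.87) higher in miR-290 KO iPSC than in WT on the log2 scale. The mean was 14.6 ± 6.09 CPM (SD, n = 2 colonies) against 0.757 ± 0.978 CPM (SD, n = 3). Because the deposited log2 values include a small prior, changes of genes with few reads are understated. Insm1 headed the called genes of that comparison, with Msln (4.25) next in line. At the other end, Stra8 (-4.16), Obox6 (-4.12) and AA465934 (-3.52) came first and Tmem191c (-3.32) stood just outside. A gene was called where its adjusted p from limma, Benjamini-Hochberg over all genes, was under 0.05; 201 genes were called in that comparison, 1.57% of the matrix. In the authors' deposited table of the same comparison, which lists 1429 genes, the log2 fold changes were 4.06 for Insm1, -4.18 for Stra8, -4.23 for Obox6 and -3.65 for AA465934.

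Stra8 had its highest levels in WT and miR-302 KO iPSC, lower levels in both miR-290 KO groups and no reads in the double KO. The WT libraries gave 10.5, 11.2 and 32.1 CPM. Stra8 in miR-302 KO iPSC was at 11.1 and 10.9 CPM in colony 1 and at 11.1 and 13.5 CPM in colony 2. All 4 of these libraries lay within the WT range, including those of the colonies whose libraries differed most in other genes. Lower values were found in miR-290 KO iPSC, with 2.22 and 0.256 CPM in colony 1 and 1.23 and 0.319 CPM in colony 2, from 48, 4, 30 and 2 reads. The miR-290 KO ESC had 2.67 and 0.523 CPM, which overlapped the miR-290 KO iPSC. The miR-302 KO ESC libraries split, with 10.3 CPM in library 1 and 0.911 CPM in library 2. No read was recovered in any double KO library, and 3 reads over that group would be 0.0481 CPM.

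Obox6 was high in WT iPSC and in 1 miR-302 KO library. WT iPSC had 28.8, 20.9 and 52.9 CPM. In miR-302 KO iPSC colony 2 the same gene had 27.9 CPM in library 1 (535 reads) and 0.201 CPM in library 2 (4 reads), a 139-fold difference within a colony. Only 10 genes of the matrix (0.0783%) differed as much between those 2 libraries. Colony 1 gave 0.469 and 0.922 CPM. Obox6 in miR-290 KO iPSC was at 3.29, 2.31, 1.27 and 0.797 CPM, and in miR-290 KO ESC at 3.27 and 3.66 CPM; these 2 groups overlapped. The miR-302 KO ESC were lower, with 1.00 and 0.0536 CPM, and all 4 double KO libraries had 0 reads.

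AA465934 stood near a high and a low level, with libraries of 2 groups on each side. It was at 62.0, 73.5 and 51.6 CPM in WT iPSC, at 65.8 CPM in miR-302 KO iPSC colony 2 library 2, and at 63.6 CPM in miR-302 KO ESC library 1. In the other 14 libraries it ran from 1.29 to 9.58 CPM. The partners of the 2 high knockout libraries had 5.01 CPM (colony 2 library 1) and 7.56 CPM (ESC library 2). The miR-290 KO iPSC spanned 3.08 to 8.13 CPM, the miR-290 KO ESC had 7.07 and 6.16 CPM, and the double KO spanned 5.77 to 9.58 CPM, so these 3 groups overlapped. In miR-302 KO colony 2, Obox6 was high in library 1 and AA465934 in library 2, so the libraries of a colony differed in opposite directions.

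Set against WT iPSC as a whole, the 4 genes differed in which knockouts departed from WT. Of the 16 knockout libraries, 15 were below the lowest WT library for Obox6 and 14 for AA465934, with miR-302 KO libraries among them. For Stra8 the number was 12, and none of the 4 miR-302 KO iPSC libraries was among them. For Insm1, 6 libraries were above the highest WT library, all from the miR-290 KO groups. The WT and miR-290 KO iPSC libraries were used in the choice, so these counts are descriptions and in part fixed by it. The share of all genes placed in this way was not computed. On the log2 scale, miR-302 KO iPSC differed from WT by -0.98 (SE 0.87) for Insm1, -0.43 (SE 0.86) for Stra8, -4.33 (SE 0.81) for Obox6 and -2.97 (SE 0.76) for AA465934. Over the whole matrix, 4 genes (0.0313%) were called in that comparison. All comparisons with WT share the same 3 libraries, and the WT libraries may share a derivation, so a property of that derivation and the loss of a cluster cannot be told apart for Obox6 and AA465934. In bulk RNA, fewer cells that express a gene and less RNA per cell cannot be told apart either.

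No WT ESC was analysed, so the ESC cannot show whether the difference from WT seen in iPSC also arose without reprogramming. What can be given is how far miR-290 KO ESC differed from iPSC. Between miR-290 KO ESC and miR-290 KO iPSC the log2 difference was -1.21 (SE 0.95, 95% interval -3.26 to 0.85) for Insm1. It was 0.64 (SE 0.95, -1.41 to 2.69) for Stra8, 0.98 (SE 0.88, -0.94 to 2.89) for Obox6 and 0.32 (SE 0.84, -1.50 to 2.13) for AA465934. No p is given because the iPSC chose the genes. With 2 samples a group the intervals are wide, and they do not show that the groups were alike. In the whole matrix, limma called 0 genes between these groups (0%), with 492 at an unadjusted p under 0.05. Against WT iPSC, miR-290 KO ESC differed by 3.36 (SE 0.87) for Insm1, -3.52 (SE 0.86) for Stra8, -3.14 (SE 0.81) for Obox6 and -3.20 (SE 0.76) for AA465934, which sets ESC against iPSC as well as knockout against WT.

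Within ESC, the 2 knockouts could be compared with libraries that the choice had not used, and 0 of the 4 genes passed the test. In miR-290 KO ESC, Insm1 was at 6.15 ± 2.48 CPM (SD, n = 2) against 0.563 ± 0.266 CPM (SD, n = 2) in miR-302 KO ESC. The log2 difference was 3.15 (SE 0.95), with limma's Benjamini-Hochberg adjusted p of 0.18. Obox6 was at 3.47 ± 0.279 CPM against 0.527 ± 0.670 CPM (SD, n = 2 each), a log2 difference of 2.92 (SE 0.88, limma adjusted p = 0.18). Obox6 was thus higher in miR-290 KO than in miR-302 KO ESC, without a call. The choice had set miR-290 KO iPSC against WT, which is another reference. As descriptions, miR-290 KO iPSC differed from miR-302 KO iPSC by 0.21 (SE 0.88), and miR-290 KO ESC from WT iPSC by -3.14 (SE 0.81). Stra8 (-1.28, SE 0.95, limma adjusted p = 0.62) and AA465934 (-1.71, SE 0.84, limma adjusted p = 0.42) had 95% intervals of -3.33 to 0.78 and -3.53 to 0.10. At an unadjusted p under 0.05, 2 of the 4 genes passed (Insm1 and Obox6). In the whole matrix 75 genes (0.587%) were called, with 1632 at an unadjusted p under 0.05.

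Library 1 of the miR-302 KO ESC decided part of this comparison. Without it, the log2 difference of Obox6 was 4.18 with a limma adjusted p of 0.0362, over a range of 0.0362 to 0.696 across 25 alternative settings, that of Stra8 was 0.38 in place of -1.28, and that of AA465934 was -0.19 in place of -1.71. Without library 2 instead, AA465934 was -3.24, Stra8 -2.93 and Obox6 1.65. The lone remaining library was then assumed to vary like the other groups. For Insm1 the adjusted p ran from 0.0572 to 0.696 over the alternatives, and the log2 difference from 2.16 to 3.56.

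**Figure D2:**
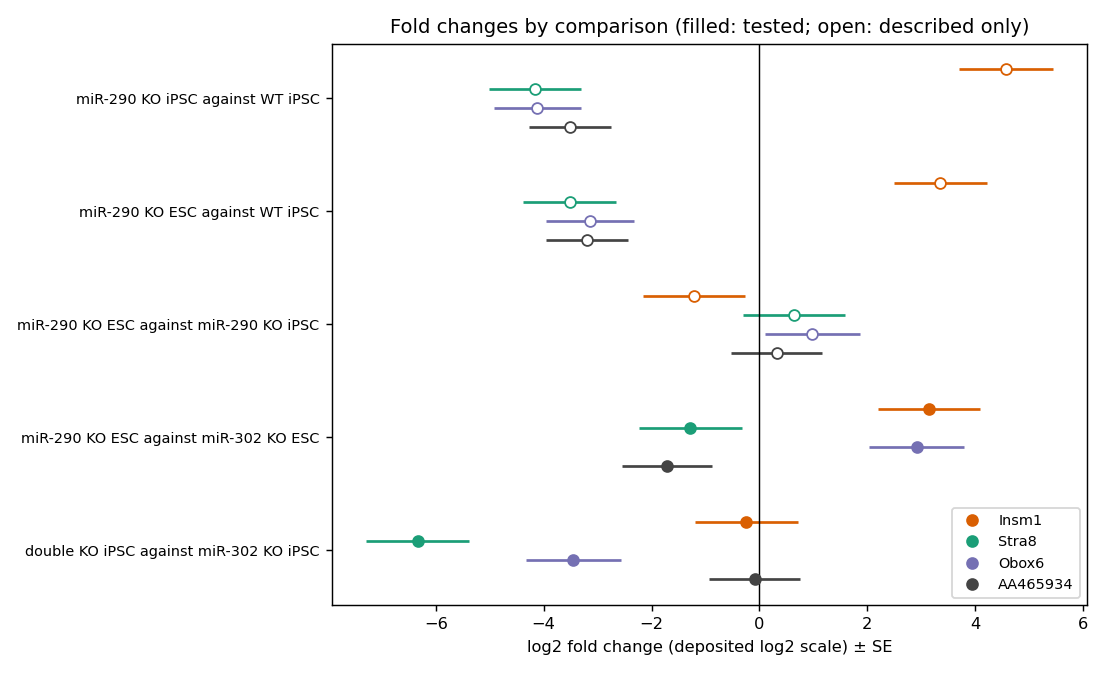
Log2 fold changes of the 4 genes in 5 comparisons, with bars for the standard error from limma; filled points were tested and open points are descriptions of groups used in choosing the genes. The values of both miR-290 KO groups against WT iPSC lie on the same sides of 0, and both use the WT libraries of the choice. In double KO against miR-302 KO iPSC only Stra8 (-6.34) and Obox6 (-3.45) passed the test.

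Double KO was compared with miR-302 KO iPSC, groups that the choice had not used and that differ by the label in miR-290. They also differed in the summed pluripotency genes, at 1441 to 1678 CPM in double KO and 6889 to 8310 CPM in miR-302 KO iPSC. What part that difference had in the levels of the 4 genes was not tested. Stra8 and Obox6 fell, and 2 of the 4 genes passed the test. In the matrix 46.9% of genes were called in this comparison and 18.4% were called lower, so a call here is common. Stra8 went from 11.6 ± 0.890 CPM (SD, n = 2 colonies) to 0 reads in each of 4 libraries. That is at least 244.6-fold lower, taking 3 reads over the double KO group as its floor. Limma gave -6.34 (SE 0.95, Benjamini-Hochberg adjusted p = 0.000184) on the log2 scale, where the prior sets the size. Leaving out a sample or a miR-302 KO library gave -6.41 to -6.27, and log2 of CPM plus 1 gave -3.65 (adjusted p = 0.000801).

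For Obox6 the result rested on 1 library. The miR-302 KO mean was 7.38 ± 9.46 CPM (SD, n = 2 colonies), of which library 1 of colony 2 supplied 535 of 557 reads. Double KO cells had 0 reads, at least 172.9-fold lower than the pooled miR-302 KO libraries but at least 9.6-fold lower where library 1 of colony 2 is left out (22 reads), and limma gave -3.45 (SE 0.88, adjusted p = 0.00663). Without that library the log2 difference was -1.87 (adjusted p = 0.0986), and without colony 2 it was -2.48 (adjusted p = 0.0645). With log2 of CPM plus 1 it was -1.65 (adjusted p = 0.0304). Over the 25 alternatives the adjusted p ran from 0.00231 to 0.0986. The mean of colony 2 averages unlike libraries.

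Insm1 and AA465934 did not pass the test in this comparison. Insm1 differed by -0.24 (SE 0.95, 95% interval -2.29 to 1.82, limma adjusted p = 0.86), with 9 and 15 reads in all. AA465934 differed by -0.09 (SE 0.84, 95% interval -1.90 to 1.73, limma adjusted p = 0.94), and was at 7.45 ± 0.320 CPM in double KO against 20.0 ± 21.8 CPM in miR-302 KO iPSC (SD, n = 2 colonies each). The sign of both depended on the samples left in. Insm1, high in each miR-290 KO group, was thus not high in the other genotype that lacks miR-290: double KO differed from miR-290 KO iPSC by -5.79 (SE 0.95), a description without a test. The medians of all genes were not centred in the deposited scaling. Under a median-of-ratios scaling, the median log2 difference of all genes went from 0.24 to 0.02 in this comparison, the number called lower went from 2345 to 2930 (22.9%) and the number called higher from 3642 to 3035. The values of the 4 genes became -0.45 for Insm1, -6.56 for Stra8, -3.67 for Obox6 and -0.31 for AA465934.

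A test of ESC against iPSC of the same genotype, on groups outside the choice, was possible for miR-302 KO. It called 0 of the 4 genes, none at an unadjusted p under 0.05, and 0 genes of the matrix with limma (0%), with 1343 at an unadjusted p under 0.05. The log2 differences were 1.20 (SE 0.95, -0.86 to 3.25) for Insm1, -1.82 (SE 0.95, -3.87 to 0.23) for Stra8, -1.74 (SE 0.88, -3.65 to 0.18) for Obox6 and 1.49 (SE 0.84, -0.33 to 3.30) for AA465934, each with its 95% interval. Leaving out a sample or library moved them to 0.37 to 2.02 for Insm1, -3.47 to -0.16 for Stra8, -3.32 to -0.15 for Obox6 and -0.04 to 3.01 for AA465934. The ESC libraries set both ends for Stra8 and AA465934, and those of miR-302 KO iPSC colony 2 for Obox6. Stra8 in both ESC libraries lay below the 4 iPSC libraries, by little in library 1 (10.3 against 10.9 CPM).

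Against WT iPSC, the double KO differed by -1.22 (SE 0.87) for Insm1 and -3.06 (SE 0.76) for AA465934, as descriptions. The folds were at least 349.8-fold lower for Stra8 and at least 679.5-fold lower for Obox6, with 0 reads against pooled levels of 16.8 and 32.7 CPM. In this comparison 49% of the matrix was called. The authors' deposited table of the double KO against WT, with 8672 genes, lists AA465934 at -3.37, also lists Stra8 and Obox6 as lower, and does not list Insm1. None of the 4 genes is among the 43 in the authors' deposited table of miR-302 KO against WT.

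The endocrine and neuronal genes of the Insm1 programme, such as hormone-processing enzymes and proneural factors, were mostly outside the matrix, with 7 of 29 measured. None of the 7 was called in miR-290 KO iPSC against WT, beside 1.57% of all genes. The median log2 difference of the 7 was 1.30 there, beside 0.14 for all genes. The 2 with the highest level were Cdkn1c (a cell-cycle inhibitor) and Cpe (a prohormone carboxypeptidase). The double KO differed from WT in 4 of them: Cpe rose (3.26), and Chga (the granule protein chromogranin A, -4.18), Cdkn1c (-2.79) and Pax6 (-2.43) fell, beside 49% of all genes called. Of 15 measured genes of the Insm1 cofactors and the REST-CoREST-LSD1 complex, 0 were called in miR-290 KO iPSC against WT (median 0.41) or in miR-290 KO against miR-302 KO ESC (median 0.00). Of all genes, 1.57% and 0.587% were called in these comparisons. Rest, the repressor of neuronal genes, had a mean of 250 CPM in miR-290 KO iPSC and 260 CPM in WT. Between double KO and miR-302 KO iPSC, 5 of the 15 rose and 4 fell, among them Rcor2 (-2.58) and Phf21a (1.96), beside 46.9% of all genes called there.

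Of 11 neural markers measured, 5 rose in miR-290 KO iPSC against WT: Neurog1 (3.50, SE 0.51, limma adjusted p = 0.0078), Sox1 (3.23), Sox11 (2.38), Ncam1 (1.90) and Nes (1.58). In that comparison 201 of all 12778 genes (1.57%) were called, 155 of them higher. Neurog1, a proneural factor, had 37.3 to 88.8 CPM in the miR-290 KO iPSC libraries and 2.81 to 5.02 CPM in WT. The summed level of the 11 was 717 to 1138 CPM in miR-290 KO iPSC, 411 to 723 in WT, 522 to 713 in miR-290 KO ESC, 644 to 759 in miR-302 KO ESC and 2827 to 3607 in double KO iPSC, where Insm1 was near 0. Of the defining markers, Sox1, Pax6 and Tubb3 were measured and none was at 0 in any group, though Pax6 had only 3 reads over the double KO group. In double KO against miR-302 KO iPSC, 7 of the 11 were called higher and 3 lower, beside 46.9% of all genes called. In miR-290 KO against miR-302 KO ESC, Neurog1 alone of the 11 was called (3.46, SE 0.56, limma adjusted p = 0.024), beside 0.587% of all genes. What part these cells or genes had in the level of Insm1 was not tested. Leaving out miR-290 KO iPSC colony 2 ended the call of all 5 genes in iPSC, with 2 genes called in the whole matrix, and likewise that of every other list gene named here as called between miR-290 KO iPSC and WT. Nes was called in 15 of 25 alternatives, and Neurog1 in ESC in 18 of 25.

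Markers of other cell types were read in the same way. Among primitive endoderm markers, Col4a2 (2.48), Col4a1 (1.99) and Sparc (1.35), which encode basement membrane proteins, rose in miR-290 KO iPSC against WT. These were 3 of 8 measured, beside 1.57% of all genes called. The summed level of the 8 was 1386 to 2296 CPM against 580 to 726 in WT, and it was highest in double KO iPSC at 3478 to 6231 CPM, although Gata4, a defining marker, had 0 reads there. Among trophoblast markers, 2 of 10 rose in miR-290 KO iPSC against WT, Gata3 (2.35) and Tfap2a (1.94), beside the same 1.57%. In miR-290 KO against miR-302 KO ESC 2 of 10 rose, the keratins Krt7 (6.09) and Krt8 (3.89), beside 0.587% of all genes called. The summed level of the 10 was 316 to 1066 CPM in miR-290 KO iPSC, 151 to 568 in WT, 476 to 773 in miR-290 KO ESC and 142 to 189 in miR-302 KO ESC. Fibroblast markers summed to 12.3 to 38.2 CPM in every group, with 5 of 15 measured and 0 called in the single knockouts. Col4a2 was called in 12 of 25 alternatives, Krt8 in 10 and Tfap2a in 18. What part these markers had in the levels of the 4 genes was not tested.

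Of the retinoic acid pathway, through which Stra8 is induced in germ cells, 19 of 28 genes were measured. Between miR-290 KO iPSC and WT, 1 of 19 was called, Meis2 (2.80, SE 0.31, limma adjusted p = 0.0028), a homeobox target of retinoic acid that rose while Stra8 was low. The list median was 0.40, and 1.57% of all genes were called there. Between miR-290 KO and miR-302 KO ESC, 0 of 19 were called (median 0.00), beside 0.587% of all genes. Of the 19, 6 rose and 2 fell in double KO against miR-302 KO iPSC, including Meis1 (6.39), Meis2 (4.05) and the retinoic acid-binding protein gene Crabp1 (-6.22). These 8 of 19 stand beside 46.9% of all genes called there.

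The promoter window of Stra8 is printed because the gene is known as a retinoic acid target. It covers 250 bases before to 50 after the start in RefSeq (GRCm38.p6), chr6:34920698-34920997 on the plus strand. The span of Stra8 given above begins earlier, at 34920163, so this window lies inside it and the positions hold for the RefSeq start only. Capitals mark AGGTCA, the hexamer repeated in retinoic acid response elements, which occurred at 2 positions, -194 and -38 from the start.
Stra8: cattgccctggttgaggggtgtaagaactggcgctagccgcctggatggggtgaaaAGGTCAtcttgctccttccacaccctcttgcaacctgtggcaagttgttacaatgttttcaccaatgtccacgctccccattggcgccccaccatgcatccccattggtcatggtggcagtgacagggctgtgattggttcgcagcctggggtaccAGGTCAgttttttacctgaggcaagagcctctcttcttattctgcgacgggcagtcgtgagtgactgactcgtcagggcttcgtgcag
The window of AA465934 (chr11:83291449-83291748, plus strand), also low in miR-290 KO iPSC, held AGGTCA at -130, the E-box CACGTG at -55 and GCGGGA, a core of E2F sites, at 34.
AA465934: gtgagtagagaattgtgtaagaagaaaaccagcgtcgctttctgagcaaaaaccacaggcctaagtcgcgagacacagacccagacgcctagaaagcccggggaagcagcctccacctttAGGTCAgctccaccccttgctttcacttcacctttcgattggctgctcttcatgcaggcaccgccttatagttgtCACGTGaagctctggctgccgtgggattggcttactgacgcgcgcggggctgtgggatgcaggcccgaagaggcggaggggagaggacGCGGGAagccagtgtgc
Both strands were searched. Of 32851 such windows, 16.3% held AGGTCA, 7.2% held CACGTG, 20.0% held GCGGGA and 16.3% held CAGCTG, the proneural E-box, which was in neither of the 2 windows. CACGTG and GCGGGA were not found in the Stra8 window. A match is a description of the letters only.

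Meiotic and germline genes fell together with Stra8 in the double KO. Of 27 measured of 42, 19 fell and 0 rose in double KO against miR-302 KO iPSC, beside 18.4% of all genes called lower. The list median was -4.28 on the log2 scale, against 0.24 for all genes, and -4.92 with the 8 genes at 0 reads placed at their bound. Dazl, a germ-cell RNA-binding protein, had 0 double KO reads against 27.9 CPM over the miR-302 KO group, at least 580.2-fold lower. Dmc1, the meiotic recombinase, was at least 397.1-fold lower. Tex15 fell by 8.11 (SE 0.44, limma adjusted p = 3.3e-08). Prdm14, a regulator of germ cell and naive pluripotent fate, had 2 reads against 1087, a ratio of 506 with an exact 95% interval of 140 to 4190 that covers counting error only. Leaving out each sample or miR-302 KO library in turn, and the other alternatives, gave 18 to 22 called genes.

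In the single miR-290 knockouts few germline genes were called. Of 27 genes, 1 was called in miR-290 KO iPSC against WT, Sycp3 (-2.41, SE 0.42, limma adjusted p = 0.019), a protein of the synaptonemal complex at 1.24 ± 0.239 CPM (SD, n = 2 colonies) against 6.82 ± 2.23 CPM (SD, n = 3) in WT. The list median was -0.53, and 1.57% of all genes were called in that comparison. In miR-290 KO against miR-302 KO ESC, 1 of 27 was called, beside 0.587% of all genes. It was Sycp1 of the same complex (-2.99, SE 0.47, limma adjusted p = 0.02), with 1.66 and 3.49 CPM against 19.4 and 21.1 CPM. Sycp3 was called in 21 of 25 alternatives and Sycp1 in 17 of 25. Sycp3 lost its call without either miR-290 KO colony and without WT library 2 or 3. Against WT, 24 of the 27 fell in the double KO, beside 2753 of all 12778 genes called lower. In the miR-302 KO 0 of the 27 were called, beside 4 genes (0.0313%) of the matrix.

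**Figure D3:**
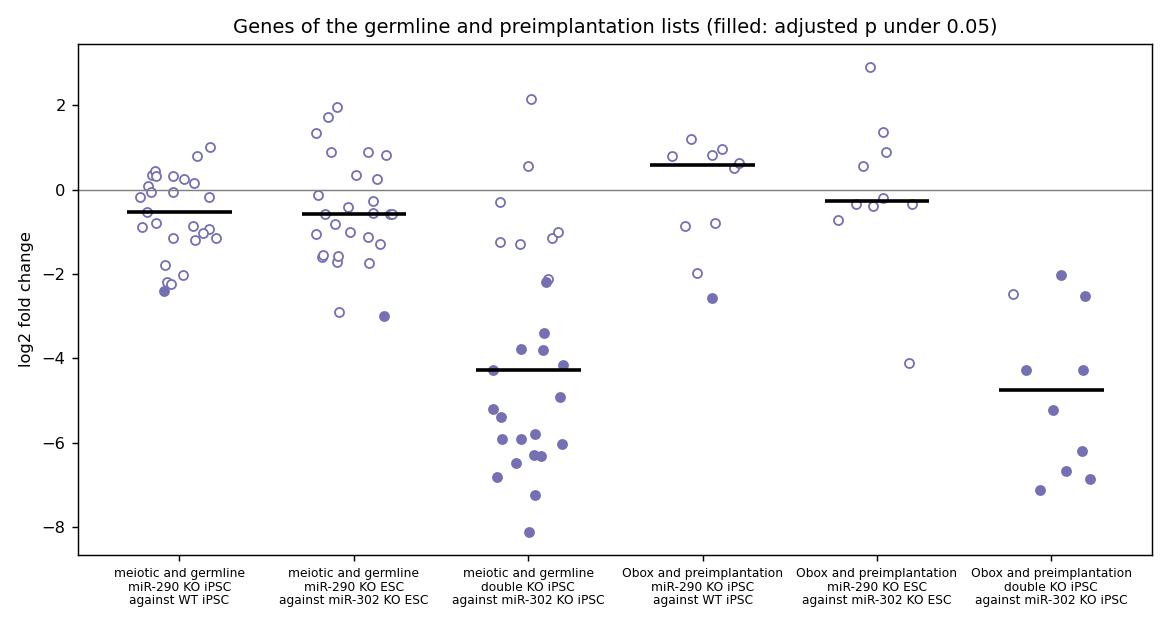
Log2 fold changes of the measured genes of the meiotic and germline list (27 genes) and the Obox and preimplantation list (10 genes) in 3 comparisons; filled points have an adjusted p under 0.05 and black bars are list medians. In double KO against miR-302 KO iPSC 19 and 9 genes were called, all lower, beside 18.4% of all genes called lower. In the other comparisons at most 1 gene per list was called, beside 1.57% (iPSC) and 0.587% (ESC) of all genes called.

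PRC1.6, a Polycomb complex that keeps germline genes silent through MGA, MAX and E2F6, was read with other silencers of such genes, 23 of 23 measured. None was called in miR-290 KO iPSC against WT (median 0.15) or in miR-290 KO against miR-302 KO ESC (median -0.22), beside 1.57% and 0.587% of all genes. Cbx3 and Hdac1 had the highest levels. The double KO had 5 of them higher and 8 lower than miR-302 KO iPSC, led by the DNA methyltransferase genes Dnmt3l (-8.82) and Dnmt3b (-3.17) and by Yaf2 (2.66) and E2f6 (2.19), 13 of 23 beside 46.9% of all genes.

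Of the Obox family and preimplantation genes, 10 of 38 were measured beside Obox6, and Crxos was 1 of them. Crxos was the 1 gene of the 10 called in miR-290 KO iPSC against WT (-2.56, SE 0.51, limma adjusted p = 0.029), beside 1.57% of all genes. It was called in 18 of 25 alternatives. Of the 10, 9 fell in double KO against miR-302 KO iPSC, beside 18.4% of all genes called lower. The list median was -4.75 (-5.73 with the 2 genes at 0 reads at their bound), against 0.24 for all genes. Among the 9 were Zscan4c (-7.13), the zona pellucida gene Zp3 (-6.86), Tbx3 (-6.68) and Zscan4a (-6.20). Reads were not recovered for the Zscan4 genes, so only their deposited log2 values were used. The count lay between 5 and 10 over the alternatives. In miR-290 KO against miR-302 KO ESC 0 of 10 were called, beside 0.587% of all genes.

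Of 25 pluripotency genes measured, 0 were called in miR-290 KO iPSC against WT, in miR-302 KO iPSC against WT and in miR-290 KO against miR-302 KO ESC, with medians of -0.08, 0.03 and -0.19. Of all genes, 1.57%, 0.0313% and 0.587% were called there. The double KO had 22 of the 25 lower and 1 higher than miR-302 KO iPSC, beside 18.4% of all genes called lower. Of the 19 measured genes among published targets of the seed, Irf2 (3.28) was called in miR-290 KO iPSC against WT and Dkk1 (3.13) in miR-290 KO against miR-302 KO ESC. The list medians were 0.95 and 0.81, and 1.57% and 0.587% of all genes were called. Irf2 was called in 17 of 25 alternatives and Dkk1 in 13. Of these targets, 13 rose and 3 fell in double KO against miR-302 KO iPSC, led by Lefty2 (-8.74), Nr2f2 (7.08), Tgfbr2 (6.39) and Irf2 (5.76), beside 46.9% of all genes called.

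Crxos, a homeobox gene, is the next gene of the matrix to Obox6 on chromosome 7, 42.9 kb away, and was also the gene most like Stra8. It had 4.25, 3.40 and 10.4 CPM in WT, 0.452 to 1.27 CPM in miR-290 KO iPSC, 2.40 to 11.7 CPM in miR-302 KO iPSC and 0 reads in the double KO. The miR-290 KO ESC had 1.07 and 1.05 CPM and the miR-302 KO ESC 2.44 and 0.750 CPM. Across the 13 samples (colonies, or libraries where there is no colony), the deposited values of Crxos and Stra8 had a Pearson r of 0.969. Over the 8 samples of groups that the choice did not use r was 0.961, and over the 11 without the double KO 0.947. Crxos and Obox6 had an r of 0.77 over the 13 samples, 0.70 over the 8 and 0.59 over the 11. Crxos in the double KO was at least 116.1-fold lower than in miR-302 KO iPSC (limma adjusted p = 1.37e-05). Ehd2, an endocytic ATPase gene and the next gene after Crxos at 107.3 kb, went the other way, with 3.93 (SE 0.71) in miR-290 KO iPSC against WT and 6.69 (SE 0.78) in double KO against miR-302 KO iPSC, both called (the first in 20 of 25 alternatives, and not without miR-290 KO colony 2 or any of the 3 WT libraries).

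**Figure D4:**
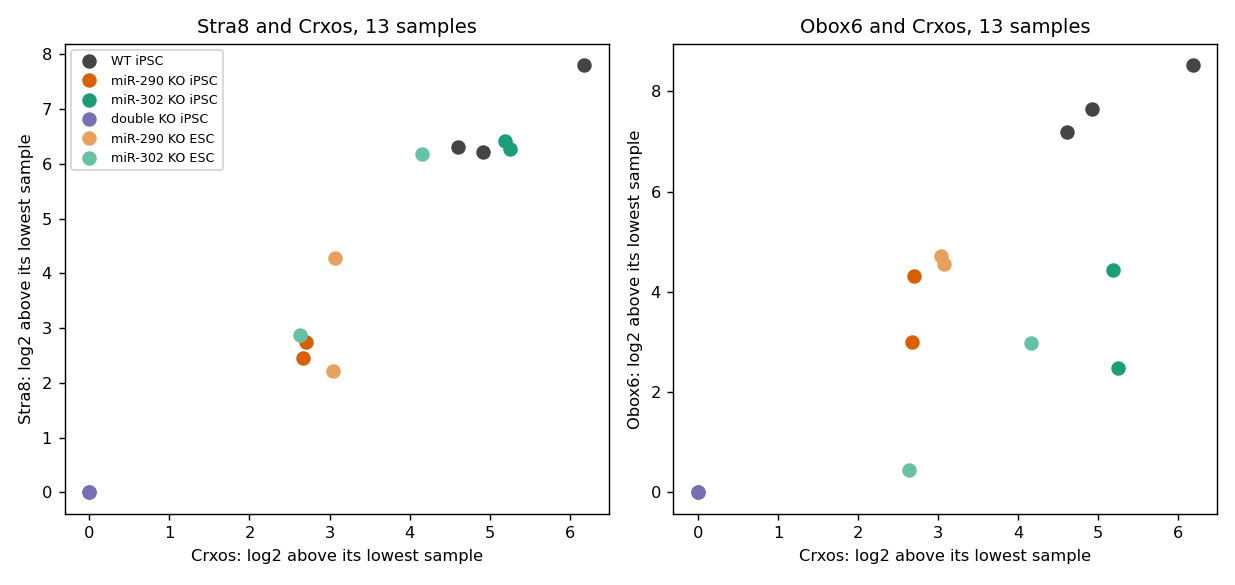
Deposited log2 values of Stra8 and of Obox6 against those of Crxos in 13 samples, each as the distance above the lowest sample of that gene. The 2 double KO colonies coincide at 0; Stra8 and Crxos rank the samples alike in the main (r 0.969), though the 2 miR-290 KO ESC samples differ in Stra8 (4.28 and 2.21) at like Crxos (3.07 and 3.04), while in miR-302 KO samples Obox6 is lower than in WT samples with like Crxos.

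Near genes of the matrix on both sides of Insm1 (Naa20, Crnkl1, Ralgapa2 and Kiz), Stra8 (Tmem140, Wdr91, Cnot4 and Nup205) and AA465934 (Slfn9, AI662270 and Ap2b1) were read too. None of them was called in miR-290 KO iPSC against WT, beside 1.57% of all genes. On the other side of Obox6 the next genes of the matrix were far off, Pla2g4c at 2472.6 kb and Lig1 at 2521.8 kb. Neither was called in miR-290 KO iPSC against WT. AI662270, 65.1 kb from AA465934, was called lower in miR-290 KO than in miR-302 KO ESC (-3.61, SE 0.57, limma adjusted p = 0.021), a call kept in 17 of 25 alternatives and lost without either miR-290 KO library or without miR-302 KO library 2, among others. In the double KO, 5 of these 11 neighbours were higher than in miR-302 KO iPSC: AI662270 (3.93), Kiz (3.10), Naa20 (1.74), Nup205 (1.6) and Cnot4 (0.94). Of all 12778 genes, 3642 were called higher in that comparison, and 46.9% were called in either direction. Slfn9 was lower (-3.20), but its miR-302 KO level came mostly from library 1 of colony 1, with 10.4 CPM against 0.461 to 1.66 CPM in the other 3, and the call was lost without it. Lig1, 2521.8 kb from Obox6, was lower by a log2 difference of -0.95, called in 19 of 25 alternatives.

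Among 12178 genes with a group mean of at least 1 CPM, the 5 with the highest r over 13 samples were named for each gene. These samples share groups, depth and processing, and the values are descriptions. For Insm1 they were Mthfsd (0.894), Pax6 (0.889), Cadm3 (0.883), Asprv1 (0.881) and Evx1 (0.868). Pax6, a neural and endocrine regulator, had 4.45 ± 0.00729 CPM in miR-290 KO iPSC (SD, n = 2 colonies), 3.86 ± 2.35 CPM in miR-290 KO ESC (SD, n = 2) and 0.846 CPM or less on average elsewhere, and its r over the 8 samples was 0.959. For Stra8, Crxos was followed by Mypn (0.952), Ppp1r14d (0.938), Tbx21 (0.922) and Zfp870 (0.920), of which all but Zfp870 had 0 reads in the double KO. For Obox6 they were Gjb1 (0.890), Itga5 (0.889), Foxn4 (0.884), Xkr8 (0.875) and G0s2 (0.865). For AA465934 they were Mms22l (0.912), AI450353 (0.896), Nynrin (0.866), Thrsp (0.864) and Dtl (0.858).

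The 4 genes were not alike among themselves. Stra8 and Obox6 had an r of 0.74 over 13 samples and 0.54 without the double KO, Stra8 and AA465934 0.64 and 0.69, and Obox6 and AA465934 0.65 and 0.66. Over the 8 samples outside the choice, the last pair had an r of 0.19. Insm1 and Stra8, chosen for changes in opposite directions, had an r of -0.22 over 13 samples and -0.78 without the double KO. Over the 8 samples their r was 0.05, that of Insm1 and Obox6 0.61 and that of Insm1 and AA465934 -0.13.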

How the data were processed

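QuantSeq libraries (200 ng RNA, 50 bp reads) were processed by the submitters, whose processing notes name Trim Galore 0.66, Salmon 1.4.0, FastQC 0.11.9, DESeq2 1.34.0, STAR, MultiQC, limma and mm10, without roles. The authors deposited a matrix of log2 values, read from the values as log2 CPM with a prior and a shift per gene. Its name speaks of counts, but it holds none, so limma was run on the log2 values and no count test was used. Reads were recovered for 12237 of 12778 genes (tolerance 0.02 reads; 99.548% of their values whole) and agree within 5% with the mean normalized signal in the authors' tables. Those tables hold, per the file headers, log2 fold changes, a test score and p-values; 6 columns of the matrix that are not libraries of this series were not used.

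Colony libraries were averaged (13 samples, 6 groups) and fitted together with limma 3.58.1 in R 4.3.3 with a trend, Benjamini-Hochberg over 12778 genes in each comparison, 7 residual degrees of freedom. Alternatives were the scaling between libraries, the added constant, a filter on low values, the moderation, array weights, the sample unit, the samples in the fit, a replicate block and leaving out samples; leaving out single miR-302 KO iPSC libraries was added after seeing the data. Other steps used Python with pandas and scipy. The members and the 12 gene lists were chosen with earlier results of these data known. Named genes are the 4, up to 4 called genes per list and comparison with the largest change (or the 2 with the highest level where none was called), 5 genes most like each of the 4, and 2 neighbours on each side. Some genes that this rule names are not reported here. Floors take 3 reads over a group and, like intervals of ratios, cover counting error only, since PCR reads are not independent molecules.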

Additional observations from a re-analysis of the deposited data

Results flagged for a closer look

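In groups of 4 libraries, a library was singled out where its gap to the nearest other library took up more than 0.829 of the range (Dixon's 95% critical value), which chance gives in about 1 of 20 groups. All 3 such values came from the 10 groups checked and from colony 2 of the miR-302 KO iPSC. Obox6 was at 27.9 CPM in library 1 of that colony, with a gap of 0.974 of the range. AA465934 was at 65.8 CPM in library 2, with a gap of 0.899, and Stra8 was at 13.5 CPM in the same library, with a gap of 0.9 over a range that runs only from 10.9 to 13.5 CPM. Each of the 3 values lies within the range of the WT iPSC libraries for its gene.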

How the results depend on the processing

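Of the values of the 4 genes under 25 alternative settings, 92 of 100 kept their direction and their side of the threshold in double KO against miR-302 KO iPSC, 98 of 100 in miR-290 KO against miR-302 KO ESC and 99 of 100 in miR-302 KO ESC against iPSC. In the 2 comparisons described without a test, 98 of 100 (miR-290 KO iPSC against WT) and 100 of 100 (miR-290 KO ESC against iPSC) moved by less than the spread between samples. Leaving out a sample of a group not compared cannot move the log2 difference, only its SE and adjusted p. These tallies are therefore in part fixed in advance. With log2 of recovered CPM plus 1, Insm1 was 3.22 and Stra8 -3.17 in miR-290 KO iPSC against WT. The other changes came from leaving out samples or, chosen after seeing the data, single miR-302 KO iPSC libraries. In double KO against miR-302 KO iPSC, Insm1 ran from -1.06 to 0.59, Obox6 from -5.04 to -1.87 (-1.65 with log2 of CPM plus 1) and AA465934 from -1.31 to 1.14. Insm1 was 0.59 without miR-302 KO colony 1, 0.10 without its library 1 and 0.11 without double KO colony 1. AA465934 was 1.14 without miR-302 KO colony 2, 0.83 without its library 2 and 0.53 without colony 1 library 1. In miR-290 KO against miR-302 KO ESC, Stra8 ran from -2.93 to 0.38 and Obox6 from 1.65 to 4.18; in miR-302 KO ESC against iPSC, AA465934 ran from -0.04 (without ESC library 1) to 3.01. The cause was not tested.

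Counts over all genes moved more. In miR-290 KO iPSC against WT, 371 genes were called with log2 of CPM plus 1, 409 with each library as a sample and 384 with array weights, and 2 to 339 when a sample or library was left out. In miR-302 KO iPSC against WT, 20 were called with each library as a sample, 7 without the trend and 3 to 1273 with leave-outs. In miR-290 KO against miR-302 KO ESC the counts were 9 with each library as a sample, 0 with only the groups compared and 4 to 357 with leave-outs. In miR-290 KO ESC against iPSC they were 1 with each library as a sample, 4 with array weights and 0 to 7 with leave-outs. In miR-302 KO ESC against iPSC they were 1 with median-of-ratios scaling, 1 with a filter on mean CPM and 0 to 955 with leave-outs, the highest without miR-302 KO iPSC colony 2. Median-of-ratios scaling changed the split in miR-290 KO iPSC against WT from 155 higher and 46 lower to 102 and 85.

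Replicate numbers do not pair the samples: deviations of samples with the same number correlated between -0.267 and 0.184. With the replicate number as a block on the groups compared, Stra8 stayed at -6.34 (limma adjusted p = 0.00071) and Obox6 at -3.45 (adjusted p = 0.0212) in double KO against miR-302 KO iPSC, no call of the 4 genes changed, and the count in miR-290 KO against miR-302 KO ESC was 5. Depth limits Insm1 outside the miR-290 KO groups, where a group held 9 to 41 reads.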
